A study of Mus musculus with 24 samples.

Results

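The mitosis and kinetochore genes described here are 37 genes whose products carry cells from G2 through chromosome segregation and cell division, chosen by gene name from 57010 gene rows in each of 2 count tables. All 37 were found in both tables. RNA was measured in GT1-7 cells, an immortalised mouse hypothalamic line that makes gonadotropin-releasing hormone, in 24 libraries with 3 in each of 8 groups. In the RNA immunoprecipitation experiment (RIP), cells received 6 µg of a plasmid for GFP or for GFP-Mkrn3 and were lysed after 24 h. Beads that bind GFP gave the IP, and 5% of the lysate gave the input, so the groups were GFP input, GFP IP, GFP-Mkrn3 input and GFP-Mkrn3 IP. Mkrn3 is a makorin, a RING and zinc-finger protein linked to the timing of puberty. In the fractionation experiment, total and cytoplasmic RNA came from unmodified cells (wt) and from a line with stable GFP-Mkrn3 (Mkrn3ox). The labels name neither the promoter that drives the transgene nor the number of clones in that line, and they leave unsaid whether libraries of the same group are separate cultures. The p-values therefore measure only the spread between these libraries.

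In dividing cells, CDK1 bound to cyclins A and B starts mitosis, kinetochores on the centromeres attach chromosomes to spindle microtubules, and the spindle checkpoint holds back the anaphase-promoting complex (APC/C) until all are attached. APC/C then marks cyclin B and securin for destruction, and the central spindle and an actin ring divide the cell. The messenger RNAs for these proteins are known to peak in G2 and mitosis, through promoters that often carry a CHR element and CCAAT boxes.

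Promoter sequences are shown for 6 members, chosen to hold members above, below and without a difference in the pull-down comparison described further on. Each is the 150 bases before the RefSeq transcript start (GRCm38.p6), printed 5′ to 3′ on the gene's strand, and all 6 hold both searched words in those 150 bases, as do 10 of the 33 member promoters, so they are not a typical sample. Capitals mark TTTGAA (the core of a CHR) and CCAAT, or their reverse complements TTCAAA and ATTGG.
Ube2c (chr2:164769779-164769928, plus strand): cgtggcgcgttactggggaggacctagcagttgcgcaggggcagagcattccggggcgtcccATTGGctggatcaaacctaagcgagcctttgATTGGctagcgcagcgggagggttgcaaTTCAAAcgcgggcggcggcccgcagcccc
Ckap2l (chr2:129297213-129297362, minus strand): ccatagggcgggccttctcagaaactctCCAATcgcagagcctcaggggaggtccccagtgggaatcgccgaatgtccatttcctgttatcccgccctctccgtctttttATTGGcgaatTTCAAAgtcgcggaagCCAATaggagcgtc
Top2a (chr11:99024190-99024339, minus strand): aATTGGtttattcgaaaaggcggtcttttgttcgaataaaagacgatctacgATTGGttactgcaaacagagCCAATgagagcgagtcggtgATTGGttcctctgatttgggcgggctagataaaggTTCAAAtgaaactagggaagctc
Kif11 (chr19:37376232-37376381, plus strand): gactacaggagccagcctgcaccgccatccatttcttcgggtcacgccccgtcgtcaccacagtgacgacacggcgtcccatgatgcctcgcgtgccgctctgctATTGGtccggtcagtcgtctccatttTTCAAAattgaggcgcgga
Cdk1 (chr10:69352913-69353062, minus strand): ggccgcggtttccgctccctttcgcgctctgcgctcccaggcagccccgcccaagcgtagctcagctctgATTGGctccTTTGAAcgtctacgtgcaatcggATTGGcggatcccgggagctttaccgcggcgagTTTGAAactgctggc
Cdc20 (chr4:118437344-118437493, minus strand): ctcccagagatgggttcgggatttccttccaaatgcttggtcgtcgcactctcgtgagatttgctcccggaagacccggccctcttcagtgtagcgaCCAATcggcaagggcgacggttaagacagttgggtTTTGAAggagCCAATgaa
The RefSeq promoter table matched 32 of the 37 members with 33 promoters, each from 250 bases before to 50 after the start. Searched on both strands, TTTGAA stood in 81.8% of the member promoters and in 17.9% of all 32851 promoters of that length. CCAAT stood in 78.8% of member promoters against 37.4% of all, and both words stood in 69.7% against 7.0%. In 2 member promoters a match overlapped another match. At least 2 CCAAT words stood in 60.6% of member promoters against 11.7% of all. A pair in the same orientation with starts 31 to 34 bases apart, a spacing examined after the positions had been seen, stood in 21.2% against 0.9%. Neither experiment measured promoters, and a match is a description of letters only.

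The RIP libraries held 6254703 to 14575652 counts, and all 37 members entered the RIP test with 13052 genes. The fractionation libraries held 374386 to 759271 counts, and 23 members entered that test with 5033 genes. Levels are edgeR's CPM values on the TMM scale, which are counts relative to library size, and a change was called at an adjusted p under 0.05 in the edgeR quasi-likelihood test, two-sided, adjusted over all genes tested in its experiment. Mkrn3 itself read 8.61, 6.01 and 3.97 CPM in the GFP inputs, 7.32, 7.36 and 5.60 in the GFP IPs, 3602, 3728 and 3733 in the GFP-Mkrn3 inputs and 9832, 9067 and 9726 in the GFP-Mkrn3 IPs. In the fractionation table Mkrn3 held 0 counts in all total RNA libraries, 0 to 1 in wt cytoplasm and 0 to 5 in the cytoplasm labelled Mkrn3ox, so that table does not show the overexpression named by the label. CEL-seq2 reads 3′ ends, and whether the stable transgene carries one that could be counted there was not tested. The fractionation groups are therefore called by their labels only. Of 12 neuronal markers, 6 held over 100 RIP counts, Gnrh1, Map2, Mapt, Syp, Uchl1 and Tubb3, while Nefl, Nefm and Elavl4 held 0 counts in every library. The neuronal list summed to 377 to 434 CPM in the GFP inputs, 177 to 191 in the GFP IPs, 410.5 to 464 in the GFP-Mkrn3 inputs and 278 to 325 in the GFP-Mkrn3 IPs. Of 11 glial markers, Aldh1l1 held 1203 RIP counts and 6, Olig2 and Sox10 among them, held 0. Of the immune markers, Csf1r held 1246 RIP and 1946 fractionation counts and Cd68 323 RIP counts, while Ptprc held 0 RIP counts. Over the RIP groups the glial list summed to 15.5 to 24.0 CPM and the immune list to 8.99 to 22.7. Col1a2, Kdr and Pdgfra, known from fibroblasts and endothelium, were also detected, and their list summed to 492 to 529 CPM in the GFP inputs, 885.5 to 1005 in the GFP IPs, 492 to 525 in the GFP-Mkrn3 inputs and 626 to 641 in the GFP-Mkrn3 IPs. The part of these lists in the results was not tested.

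The first question was whether GFP-Mkrn3 changed the level of mitotic RNAs within 24 h. In the inputs, 0 of the 37 members were called between GFP-Mkrn3 and GFP in edgeR or in the DESeq2 Wald test (0.0153% of all genes in edgeR, 0.00766% in each direction). At an unadjusted p under 0.05, 5 of 37 members were higher and 0 were lower, against 2.92% and 2.70% of all genes. The median log2 difference over the members was 0.10, against -0.003 over all genes tested. Cdca8, a scaffold subunit of the chromosomal passenger complex, had the largest difference: it read 95.6, 71.9 and 76.5 CPM with GFP and 99.05, 105 and 121 with GFP-Mkrn3, so the groups did not overlap, but the log2 difference of 0.41 ± 0.11 (SE) had an adjusted p of 0.71. Cdk1, the mitotic kinase, differed by 0.11 (95% interval -0.18 to 0.40), and Mki67, a coat protein of mitotic chromosomes and the common marker of proliferation, differed by 0.12 (-0.07 to 0.31). Kif11 and Cenpe differed more but were not called. Kif11 read 59.55 to 72.14 CPM with GFP and 76.62 to 88.89 with GFP-Mkrn3, and Cenpe 118.3 to 155.4 and 157.5 to 171.2. The 1 member lower without overlap was Ttk, at 27.46 to 30.29 and 24.27 to 27.42. Summed over the members, the inputs read 4919 to 5393 CPM with GFP and 5495 to 5621 with GFP-Mkrn3, without overlap. In bulk RNA, a different share of cells in mitosis and a different amount of RNA per cell cannot be told apart.

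The second question was which mitotic RNAs came down with GFP-Mkrn3 beyond what came down with GFP alone. The members split. Ube2c, Cdca3, Birc5, Cenpa and Ccnb2 were lower in the GFP pull-down than in its input and were not called against their input with GFP-Mkrn3. Kif11, Top2a and Kif4 were higher in the GFP pull-down and not called with GFP-Mkrn3, while Cenpe and Cenpf were higher with GFP and lower with GFP-Mkrn3, a call of Cenpe that 5 of 13 alternatives lost. With GFP alone, IP against input called 14 members higher and 8 lower (50.3% of all genes were called, 25.1% higher and 25.2% lower). With GFP-Mkrn3, IP against input called 1 member higher and 12 lower (26.7% of all genes, 13.9% and 12.8%). The difference of these ratios, the enrichment beyond GFP, called 6 members higher and 15 lower (24.3% of all genes, 13.2% and 11.1%), with a median of -0.31 over the members and 0.04 over all genes. These 3 comparisons share libraries, and the GFP IP enters the last as a control, so their values are set side by side and not counted as separate evidence. The inputs also enter the enrichment beyond GFP: 30 of the 37 members were above 0 between the inputs, against 6415 of 13052 genes. Between the IPs alone the median was -0.22 over the members and 0.03 over all genes. An IP is a relative measure: a CPM there is a share of what the beads carried.

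The scaling moved the split of called members. With library size alone in place of TMM, which shifts the median of all genes from 0.04 to 0.23 in the enrichment beyond GFP, the split was 6 higher and 9 lower. It was 6 higher and 9 lower for IP against input with GFP-Mkrn3, where the median of all genes was 0.11. The count for IP against input with GFP-Mkrn3 also depended on single libraries. It was 8 without GFP-Mkrn3 input library 2, 7 without input library 3 and 20 without IP library 3. Of all genes, the same runs called 2385, 2672 and 4576, in place of 3487. GFP-Mkrn3 IP libraries 2 and 3 had the lowest correlation of all same-group RIP pairs (0.978, against a median of 0.991). Without IP library 3, 4359 of all genes were called beyond GFP in place of 3178. No called member changed direction under any alternative run.

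**Figure D1:**
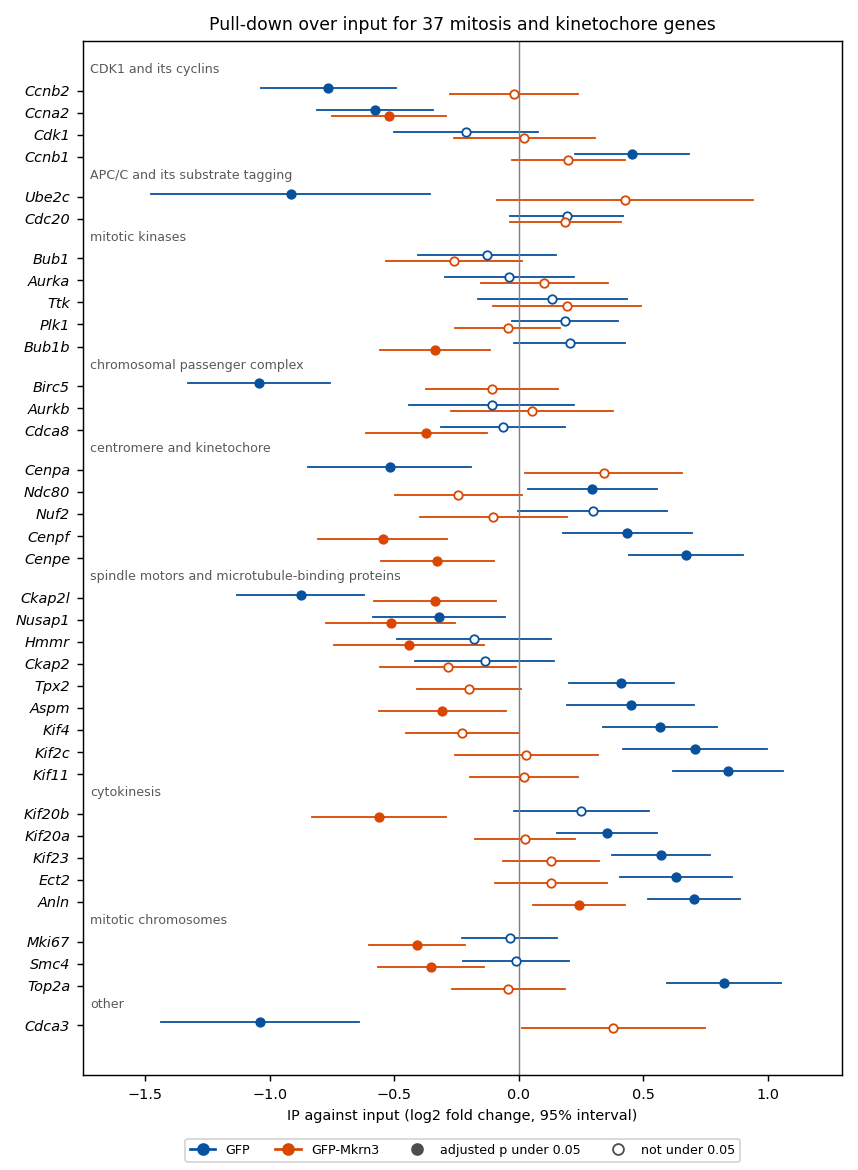
Log2 fold change of IP against input for each of the 37 genes (horizontal axis), with 95% intervals, for GFP (blue) and GFP-Mkrn3 (orange), 3 libraries a group; filled points had an adjusted p under 0.05. Birc5, Cdca3 and Ube2c are called lower with GFP only, and Kif11 and Top2a are called higher with GFP only.

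Among CDK1 and its cyclins, 1 of 4 genes, cyclin B2, was called beyond GFP, a share close to the 24.3% of all genes. Ccnb2 read 57.5, 69.9 and 76.99 CPM in the GFP inputs, 36.4, 45.2 and 38.9 in the GFP IPs, 69.97, 68.95 and 69.6 in the GFP-Mkrn3 inputs and 63.9, 69.9 and 72.1 in the GFP-Mkrn3 IPs. Its GFP IPs lay below every other library, while the GFP-Mkrn3 IPs lay within the range of the inputs. The log2 ratio was -0.76 ± 0.12 (SE) with GFP and -0.02 ± 0.11 with GFP-Mkrn3, and the enrichment beyond GFP was 0.75 ± 0.16 (edgeR, adjusted p = 0.00281). Ccnb1, the other B-type cyclin, went the other way with GFP: it rose from 68.2, 81.7 and 83.5 CPM in the inputs to 98.8, 109 and 113 in the GFP IPs, without overlap (log2 0.46, adjusted p = 8.15e-04). Its enrichment beyond GFP was -0.26 with an adjusted p of 0.194. Ccna2, cyclin A2, was lower in both IPs than in their inputs. It went from 201, 199 and 226 to 119, 154 and 147 CPM with GFP. With GFP-Mkrn3 it went from 220.3, 244 and 200.3 to 149, 158 and 156. Neither pair of groups overlapped, and the enrichment beyond GFP was 0.06 (95% interval -0.27 to 0.38). Cdk1 itself was not called in either ratio, and its enrichment beyond GFP was 0.24 (-0.17 to 0.64).

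Of 2 APC/C genes, 1, Ube2c, was called beyond GFP (24.3% of all genes were called), and Cdc20 was not. Ube2c, the ubiquitin-conjugating enzyme of APC/C (chr2:164769929-164772902), read 39.5, 47.2 and 33.3 CPM in the GFP inputs, 17.6, 23.9 and 22.1 in the GFP IPs, 36.95, 44.4 and 50.4 in the GFP-Mkrn3 inputs and 61.8, 81.4 and 32.9 in the GFP-Mkrn3 IPs. The GFP IPs lay below all inputs, whereas 2 of the 3 GFP-Mkrn3 IPs lay above all inputs and the third lay just below the lowest input. Its enrichment beyond GFP was 1.34 ± 0.33 (SE, adjusted p = 0.0065), and its own ratio with GFP-Mkrn3, 0.43, was not called (adjusted p = 0.165). Cdc20, the activator that brings substrates to APC/C, read 165, 152 and 128 CPM in the GFP IPs and 149, 162 and 143 in the GFP-Mkrn3 IPs. These overlapped, and the enrichment beyond GFP was -0.0049 (95% interval -0.32 to 0.31). Cdca3, a trigger of mitotic entry and an APC/C substrate, had the largest enrichment beyond GFP among the members. It read 52.1, 59.5 and 41.7 CPM in the GFP inputs, 23.5, 26.2 and 24.8 in the GFP IPs, 46.4, 45.9 and 56.2 in the GFP-Mkrn3 inputs and 63.3, 81.1 and 48.2 in the GFP-Mkrn3 IPs. All GFP IPs lay below all inputs, and the enrichment beyond GFP was 1.42 ± 0.23 (adjusted p = 4.13e-04).

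Besides Cdk1 and Aurkb, the members hold 5 mitotic kinases, Aurka, Plk1, Bub1, Bub1b and Ttk. Of these 1, Bub1b, was called beyond GFP, a share no larger than the 24.3% of all genes. Bub1b, the BubR1 subunit of the mitotic checkpoint complex, read 173, 187 and 188 CPM in the GFP-Mkrn3 inputs and 147, 135 and 152 in the GFP-Mkrn3 IPs, which did not overlap. Its enrichment beyond GFP was -0.54 (adjusted p = 0.00766), and it missed the threshold with library size alone (0.0538). Plk1, the polo-like kinase of mitotic entry and spindle assembly, had an enrichment beyond GFP of -0.23 (95% interval -0.53 to 0.07). Aurka, the kinase of spindle poles, had 0.14 (-0.22 to 0.50).

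Of 3 genes of the chromosomal passenger complex, which corrects chromosome attachment, 1, Birc5, was called beyond GFP (24.3% of all genes were called). Birc5, the survivin subunit, read 38.8, 45.3 and 39.3 CPM in the GFP inputs, 20.7, 18.3 and 21.04 in the GFP IPs, 39.9, 37.4 and 39.6 in the GFP-Mkrn3 inputs and 36.5, 38.8 and 33.03 in the GFP-Mkrn3 IPs. The GFP IPs lay below every other library, and the GFP-Mkrn3 IPs overlapped their inputs. Its log2 ratio was -1.04 ± 0.12 with GFP (adjusted p = 1.39e-06) and -0.11 ± 0.12 with GFP-Mkrn3 (adjusted p = 0.525). The enrichment beyond GFP was 0.94 ± 0.17 (adjusted p = 7.59e-04). Aurkb, the kinase of the complex, had 0.16 (-0.30 to 0.63). Cdca8 fell by 0.37 on the log2 scale in the GFP-Mkrn3 IP against its input (adjusted p = 0.014, and 0.0931 without GFP-Mkrn3 input library 3). Its enrichment beyond GFP was -0.31 (adjusted p = 0.149).

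At the centromere, the histone went one way and the large kinetochore proteins the other. Cenpa, the histone H3 variant that marks the centromere, read 70.8, 97.8 and 78.2 CPM in the GFP inputs, 48.9, 53.7 and 70.7 in the GFP IPs, 86.3, 77.8 and 77.7 in the GFP-Mkrn3 inputs and 103, 115 and 87.4 in the GFP-Mkrn3 IPs. All GFP IPs lay under the lowest input, 1 of them only just, and every GFP-Mkrn3 IP lay above every GFP IP. The enrichment of Cenpa beyond GFP was 0.86 ± 0.20 (adjusted p = 0.00417). Cenpe, the kinesin of the outer kinetochore (chr3:135212563-135273540), read 155, 118 and 125 CPM in the GFP inputs, 212, 208 and 214 in the GFP IPs, 158, 162 and 171 in the GFP-Mkrn3 inputs and 133, 118 and 141 in the GFP-Mkrn3 IPs. The GFP IPs lay above all other libraries, and the GFP-Mkrn3 IPs lay below their own inputs. The log2 ratio was 0.67 ± 0.099 with GFP and -0.33 ± 0.098 with GFP-Mkrn3, and the difference of -0.999 ± 0.14 (adjusted p = 1.05e-04) was the lowest among the members. That difference was called in all 19 alternatives, but the lower level with GFP-Mkrn3 was not called with library size alone or without GFP-Mkrn3 input 2, input 3, IP 1 or IP 2, up to 0.077. Cenpf, a microtubule-binding protein of the outer kinetochore, read 329, 304 and 313 CPM in the GFP IPs and 169, 141 and 204 in the GFP-Mkrn3 IPs, far apart, and its enrichment beyond GFP was -0.98 (adjusted p = 3.43e-04). Ndc80, the main microtubule coupler, was called at -0.54 (adjusted p = 0.0182) but lost the call, up to 0.109, with library size alone and without GFP input 2, GFP IP 2, GFP-Mkrn3 input 2 or GFP-Mkrn3 IP 1. Its partner Nuf2 had -0.40 (adjusted p = 0.119).

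**Figure D2:**
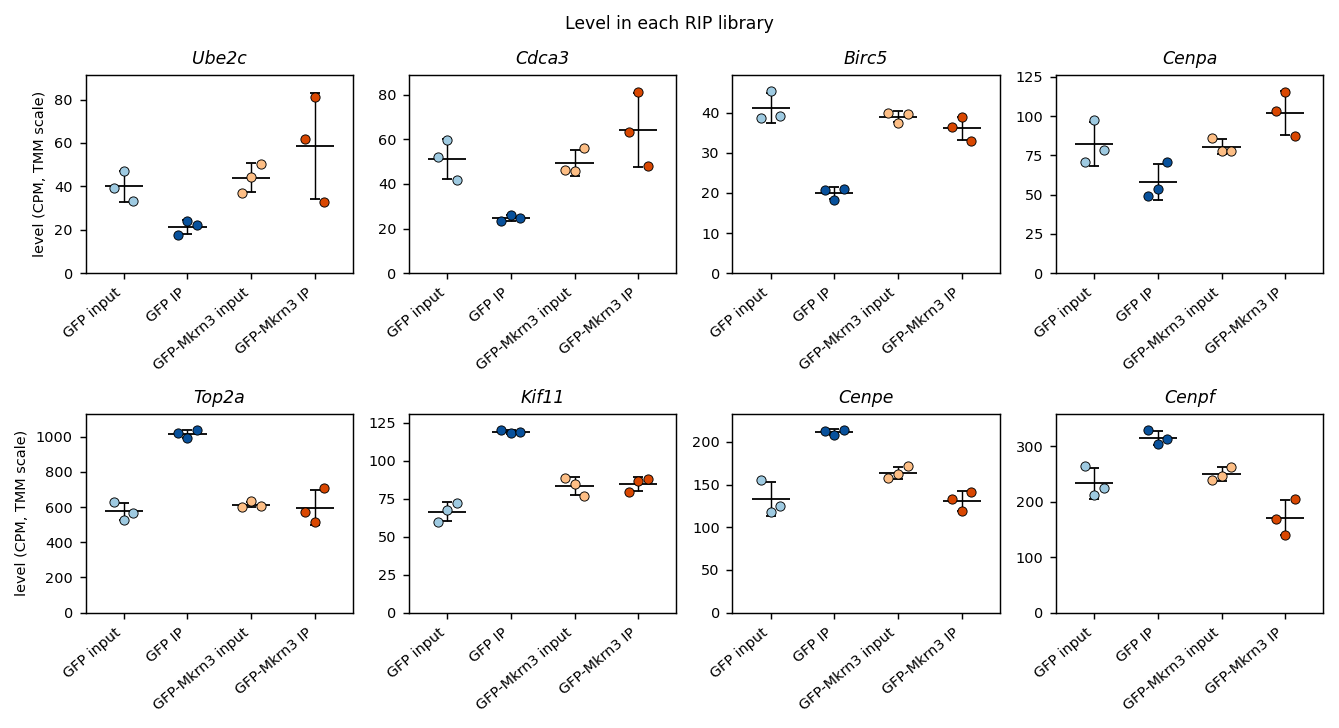
Level in CPM (vertical axis, from 0) of 8 members in each RIP library, with the mean and SD of 3 libraries. In the upper row (Ube2c, Cdca3, Birc5, Cenpa) the GFP IPs are the lowest group, and in the lower row (Top2a, Kif11, Cenpe, Cenpf) they are the highest.

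Of 9 spindle motors and microtubule-binding proteins, 5 were called higher and 2, Ckap2l and Nusap1, lower in the GFP IP against its input (25.1% and 25.2% of all genes). The Nusap1 call was lost in 5 alternatives, up to 0.103, among them leaving out GFP input 1 or 3 or GFP IP 1 or 2. Kif11, the kinesin-5 that pushes spindle poles apart (chr19:37376382-37421863), read 59.5, 67.5 and 72.1 CPM in the GFP inputs, 120.5, 118 and 119 in the GFP IPs, 88.9, 84.6 and 76.6 in the GFP-Mkrn3 inputs and 79.4, 86.6 and 87.96 in the GFP-Mkrn3 IPs. The GFP IPs formed a tight group above all others, and the GFP-Mkrn3 IPs overlapped their inputs. All GFP-Mkrn3 inputs of Kif11 lay above all of its GFP inputs. Its log2 ratio was 0.84 ± 0.095 with GFP (adjusted p = 8.59e-07) and 0.02 ± 0.094 with GFP-Mkrn3, and the enrichment beyond GFP was -0.82 (adjusted p = 3.87e-04). Kif4, a chromosome-bound kinesin, read 311, 327 and 324 CPM in the GFP IPs and 197, 173 and 242 in the GFP-Mkrn3 IPs, without overlap, and differed beyond GFP by -0.79 (adjusted p = 6.41e-04). Kif2c, a kinesin that takes microtubules apart at centromeres, differed by -0.68 (adjusted p = 0.00962). Aspm, a spindle-pole protein, and Tpx2, the activator of Aurora A on spindles, differed by -0.76 (adjusted p = 0.00191) and -0.61 (0.00234). Ckap2l, a spindle protein of the same family as Ckap2, was the exception in this group. It read 58.3, 54.5 and 54.5 CPM in the GFP inputs, 28.5, 30.3 and 32.4 in the GFP IPs, 60.6, 52.2 and 59.5 in the GFP-Mkrn3 inputs and 44.02, 49.6 and 42.5 in the GFP-Mkrn3 IPs. The GFP IPs lay lowest, and the GFP-Mkrn3 IPs lay between them and the inputs without touching either. The difference beyond GFP was 0.54 ± 0.15 (adjusted p = 0.016), and was not called without GFP-Mkrn3 input library 2 (0.0549). Nusap1 and Hmmr, which also bind spindle microtubules, were lower in the GFP-Mkrn3 IP than in its input, at log2 -0.51 and -0.44. The call of Hmmr was lost without GFP-Mkrn3 input 2, input 3 or IP 2, up to 0.099.

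All 5 cytokinesis genes were lower in the GFP-Mkrn3 IP than in the GFP IP, a comparison that called 7 members higher and 18 lower (37.6% of all genes, 20.4% and 17.2%). With library size alone that split was 10 higher and 12 lower, the median of all genes then being 0.21 in place of 0.03. Of the cytokinesis genes, Kif23 lost this call with library size alone (0.162), and Kif20a lost it there, with no filter and without GFP IP 1, GFP IP 2 or GFP-Mkrn3 IP 1, up to 0.442. Kif20b, a kinesin of late mitosis, read 61.9, 52.5 and 57.1 CPM in the GFP inputs, 67.6, 63.8 and 72.9 in the GFP IPs, 68.6, 66.3 and 70.5 in the GFP-Mkrn3 inputs and 43.8, 40.4 and 55.7 in the GFP-Mkrn3 IPs. The GFP-Mkrn3 IPs lay below their own inputs and below the GFP IPs, and the enrichment beyond GFP was -0.81 (adjusted p = 0.00174). Anln, the scaffold of the contractile ring, read 268, 243 and 254 CPM in the GFP inputs, 424, 418 and 402 in the GFP IPs, 228, 259 and 265 in the GFP-Mkrn3 inputs and 280.0, 304 and 306 in the GFP-Mkrn3 IPs. Both IPs lay above their inputs, and Anln was the 1 member called higher in the GFP-Mkrn3 IP than in its input, at 0.24 (adjusted p = 0.0301), a call lost, up to 0.168, with no filter on low counts and without GFP-Mkrn3 input 1, input 2 or IP 2. Its GFP ratio was larger, 0.70, and its enrichment beyond GFP was -0.46 (adjusted p = 0.00674, and 0.0756 with library size alone). Ect2, the exchange factor that activates RhoA at the division plane, and Kif23, a subunit of centralspindlin, were higher in the GFP IP than in its input, at 0.63 (adjusted p = 3.08e-05) and 0.57 (1.86e-05). Kif20a, the central-spindle kinesin, had an enrichment beyond GFP of -0.33 (adjusted p = 0.0585).

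Among the genes of mitotic chromosomes, Top2a, the topoisomerase that untangles sister chromatids (chr11:98992947-99024199), read 628, 529 and 568 CPM in the GFP inputs, 1022, 993 and 1038 in the GFP IPs, 603, 633 and 608 in the GFP-Mkrn3 inputs and 572, 514 and 706 in the GFP-Mkrn3 IPs. The GFP IPs lay far above all inputs, and the GFP-Mkrn3 IPs spread around theirs. Its log2 ratio was 0.82 ± 0.099 with GFP (adjusted p = 1.79e-06) and -0.04 ± 0.099 with GFP-Mkrn3, and the enrichment beyond GFP was -0.86 (adjusted p = 3.57e-04). Mki67 read 671, 568 and 608 CPM in the GFP inputs and 605, 600.5 and 596 in the GFP IPs, which overlapped, but fell from 662, 642 and 700.2 in the GFP-Mkrn3 inputs to 483, 552 and 474 in the IPs (log2 -0.41, adjusted p = 0.00159). Its enrichment beyond GFP of -0.37 (adjusted p = 0.0275) lost the call in 8 of its 19 alternatives, up to 0.276, among them library size alone and leaving out GFP input 2 or 3, GFP IP 2, GFP-Mkrn3 input 1 or 3, or GFP-Mkrn3 IP 1. Smc4, a core subunit of condensin, fell by 0.35 on the log2 scale in the GFP-Mkrn3 IP against its input (adjusted p = 0.00857).

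Among the members, the enrichment beyond GFP was lower for genes of longer genomic span, introns included. The span ran from 2.97 kb for Ube2c to 101 kb for Kif4 (RefSeq, GRCm38). Spearman's rho between span and enrichment beyond GFP was -0.78 over the 37 members and -0.39 over the 11974 tested genes with a span. For IP against input it was 0.61 over the members with GFP (0.42 over all) and -0.40 with GFP-Mkrn3 (0.09 over all). The points share the same 12 libraries, so these values are descriptions. Mature mRNA length was not used here. Cdc20 and Aurkb, with spans of 4.44 and 6.04 kb, lay at -0.0049 and 0.16, away from Ube2c and Cdca3 at similar spans, and Ckap2l lay at 0.54 with a span of 29.0 kb. The promoter words did not follow the same split: TTTGAA and CCAAT stood together in 5 of the 6 members called higher, 9 of the 14 matched members called lower and 8 of the 12 others.

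**Figure D3:**
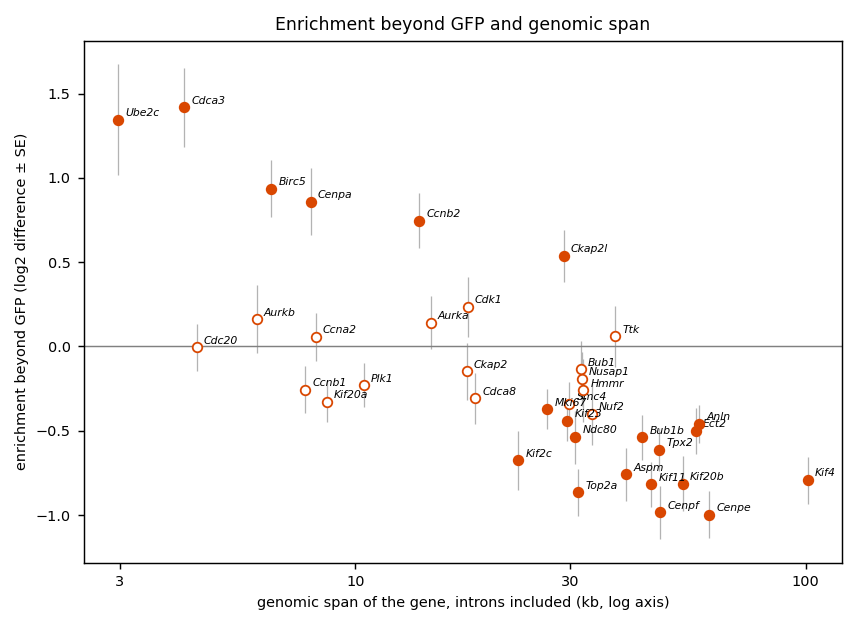
Enrichment beyond GFP (vertical axis, log2 difference ± SE) against genomic span in kb (horizontal axis, log scale) for the 37 genes; filled points had an adjusted p under 0.05. The members called higher span 2.97 to 29.0 kb, and those called lower span 23.0 to 101 kb.

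Other cell-cycle lists are read against the share of all genes called beyond GFP, 13.2% higher and 11.1% lower. Of 111 further tested mitosis genes, 15 were higher, close to that share, and 25 were lower, with a median of -0.09. The highest named were Cks2, a small CDK-binding protein (2.75), Cenpx, a small centromere protein (2.35), and the APC/C subunit Anapc10 (1.63), and the lowest were the kinase Nek2 (-0.87), the condensin subunit Smc2 (-0.83) and the cytokinesis kinase Cit (-0.83). Of 58 S-phase genes, 11 were higher and 15 lower, with a median of -0.01, from Rpa3 of the single-strand binding complex (1.55) to the checkpoint adaptor Clspn (-1.02). Of 21 G1 genes and inhibitors, 7 were higher and 1 was lower, with a median of 0.32, led by the transcription factor E2f4 (1.32) and cyclin D3 (Ccnd3, 1.09). The lower one was the inhibitor Cdkn2c (-0.55).

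The fractionation experiment asked whether these RNAs differ in the line labelled Mkrn3ox or between cytoplasm and total RNA. Few members were called, and the counts were low: 14 members, Plk1, Cdc20, Aurkb, Bub1b, Ndc80, Kif11 and Kif4 among them, did not pass the filter on low counts. In total RNA 1 of the 23 tested members was called, Kif20a, higher in Mkrn3ox (7.39% of all genes were called, 3.56% higher and 3.83% lower). In the cytoplasm 2 were higher, Kif20a and Tpx2, and 1 was lower, Anln (10.5% of all genes, 4.31% higher and 6.14% lower). The medians over tested members were 0.03 in total RNA and 0.25 in the cytoplasm, against -0.006 and 0.03 over all genes. With library size alone the median of all genes in the cytoplasm was 0.38, and the call of Anln was lost. Summed over the members, total RNA read 2665 to 2953 CPM in wt and 3782 to 3900.4 in Mkrn3ox. Without Kif20a the sums were 1452.5 to 1904 and 1360.3 to 1736, and they overlapped. The summed neuronal markers were also higher in Mkrn3ox, but 3 of the 12 were tested and 1, Uchl1, was called. Gnrh1 and Map2 were not called in total RNA (adjusted p = 0.857 and 0.308) or in the cytoplasm (0.629 and 0.661). Their list summed to 95.5 to 135 CPM in wt total RNA and 208 to 304 in Mkrn3ox, and to 106 to 223 and 382.5 to 436.5 in the cytoplasm. Uchl1, a ubiquitin hydrolase abundant in neurons, held 0 to 3 counts in every wt library, 30 to 69 in Mkrn3ox total RNA and 58 to 84 in Mkrn3ox cytoplasm, and was called higher in both (adjusted p = 4.02e-05 and 1.05e-05). Without Uchl1 the list summed to 95.5 to 132.7 and 133.4 to 198 CPM in total RNA, and to 103.5 to 223 and 219.5 to 275 in the cytoplasm, where the groups overlapped. Other marker lists differed as well. For total RNA the immune sums were 211 to 276 CPM (wt) and 303 to 401.5 (Mkrn3ox), while the cytoplasm sums overlapped. Fibroblast and endothelium sums overlapped for total RNA, but for the cytoplasm they were 448 to 572 CPM (wt) and 292 to 376 (Mkrn3ox). Of that list 2 markers were tested. Col1a2 was called lower in Mkrn3ox cytoplasm (log2 -0.71, edgeR adjusted p = 0.0346). The other marker, under the mean of 20 counts set for naming genes, went the other way. It was called higher in Mkrn3ox total RNA (log2 3.05) and stood at 1.75 in the cytoplasm, not called. The part of any of these markers in the members' results was not tested.

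Kif20a read 1342, 761 and 1233 CPM in wt total RNA and 2124, 2204 and 2421 in Mkrn3ox total RNA. In the cytoplasm it read 1332, 1368 and 1309.8 in wt and 2664, 2204 and 2161 in Mkrn3ox. Neither pair of groups overlapped, with log2 changes of 1.02 ± 0.18 (SE, adjusted p = 7.80e-04) and 0.81 ± 0.18 (adjusted p = 0.00501), and both calls held in every alternative run. The Kif20a row stands apart from the other members in this table. It held 10548 fractionation counts against 9073 counts in the RIP inputs, or 1163 per 1000, while the members' median was 22.2 and that of 7416 genes with at least 1000 RIP input counts was 21.6. With the counts of all genes summed, the ratio was 129.48 per 1000, and 34 of the 37 members lay below it. What set the low ratio of these members was not tested. Kif20a overlaps Cdc23, an APC/C subunit, and Brd8 in the annotation. Cdc23 held 7843 fractionation counts against 4909, and it was also higher in Mkrn3ox total RNA (log2 0.86, adjusted p = 0.00822). In the cytoplasm Cdc23 read 900 to 1457 CPM in wt and 1204 to 1484 in Mkrn3ox, which overlapped, with a log2 difference of 0.23 (adjusted p = 0.522). Whether the counting used strand is not stated in these sources. Reads of these overlapping genes therefore cannot be told apart and the Kif20a result is uncertain. Cdc20 stood at the other end, with 18 counts against 6397, and overlaps Elovl1 with 3682 against 2391.

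Tpx2 read 41.4, 74.4 and 46.5 CPM in wt cytoplasm and 127, 165 and 107 in Mkrn3ox cytoplasm. The groups did not overlap, and the log2 change was 1.28 ± 0.37 (adjusted p = 0.0288). In total RNA it read 63.1, 88.95 and 38.9 and 115, 125 and 135, also without overlap, with a log2 difference of 0.98 that was not called (adjusted p = 0.109). Anln read 20.7, 61.6 and 35.5 CPM in wt cytoplasm and 9.98, 0 and 10.4 in Mkrn3ox cytoplasm, from 8 to 29 counts and 0 to 5 counts. Its log2 change was -2.47 ± 0.75 (adjusted p = 0.0367). Tpx2 missed the threshold in 5 alternatives, up to 0.127, and Anln in 7, up to 0.168. These included leaving out, for Tpx2, wt cytoplasm 1 or 3 or Mkrn3ox cytoplasm 1 or 2, and, for Anln, wt cytoplasm 2 or 3 or any Mkrn3ox cytoplasm library. Without Mkrn3ox cytoplasm library 1 or 2, or wt cytoplasm library 3, Kif20a was the 1 member called.

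Between cytoplasm and total RNA, 0 of 23 members were called in wt cells (3.78% of all genes, 0.616% higher and 3.16% lower) and 1, Mki67, was lower in the cytoplasm of Mkrn3ox (4.53% of all genes, 0.775% higher and 3.76% lower). At an unadjusted p under 0.05, 4 of 23 members were lower and 0 higher in wt cytoplasm, against 9.84% and 6.16% of all genes. DESeq2 called 1 member lower there, Smc4. Mki67 read 129.8, 107 and 66.5 CPM in Mkrn3ox total RNA and 9.98, 20.4 and 31.4 in its cytoplasm, without overlap, a log2 change of -2.26 ± 0.49 (adjusted p = 0.00859). It was not called without Mkrn3ox cytoplasm library 1 (0.0525). In wt cells it read 77.5, 120.2 and 69.7 and 25.9, 74.4 and 41.02, which overlapped, with a log2 difference of -0.90 (adjusted p = 0.34). The difference between the lines in this ratio was -1.36 for Mki67 (adjusted p = 0.523). It was called for 0 members in edgeR (0.219% of all genes, 0.0795% higher and 0.139% lower). At an unadjusted p under 0.05 there were also 0 members, against 4.09% of all genes higher and 5.54% lower. DESeq2 also called 0 members, but gave an adjusted p for only 10 of the 23. Smc4 had the largest wt difference with a mean of at least 20 counts, -1.26 (adjusted p = 0.0626).

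**Figure D4:**
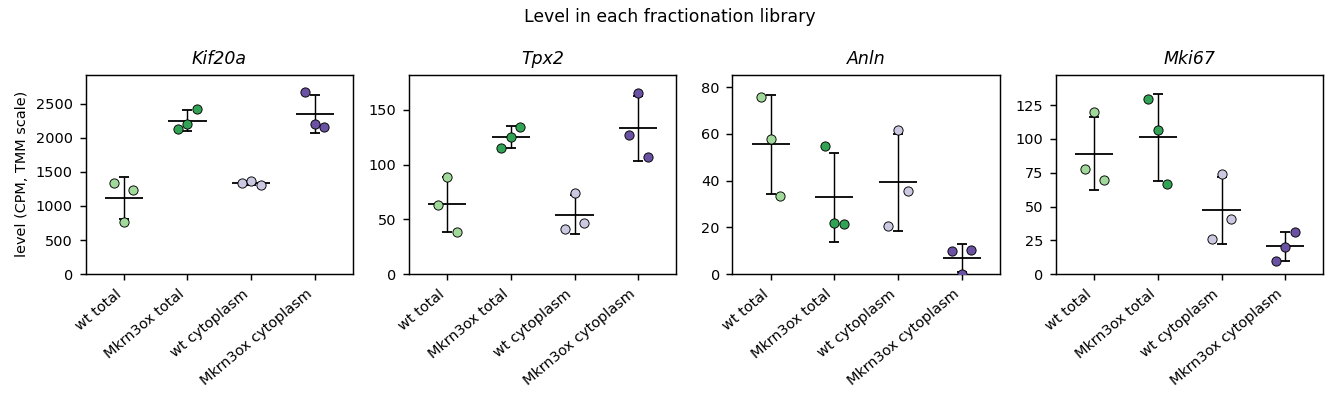
Level in CPM (vertical axis, from 0) of 4 members in each fractionation library, with the mean and SD of 3 libraries. Kif20a and Tpx2 lie higher in the Mkrn3ox groups than in the wt groups, and Anln and Mki67 have their lowest group means in the Mkrn3ox cytoplasm.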

How the data were processed

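The deposited tables hold raw counts per gene, as whole numbers. Per the submitters' processing notes, the tools were cutadapt, STAR and HTSeq and the build was mm10, and per the labels' protocols the libraries followed CEL-seq2, which sequences transcripts from their 3′ end. Not given in the sources used here: tool versions, annotation, strandedness of counting, handling of molecular identifiers. Library totals ran from 374386 to 759271 counts in the fractionation experiment and from 6254703 to 14575652 in the RIP experiment, so the fractionation values are the less precise ones.

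The members and lists were chosen with earlier results of these data known. Each experiment was fitted over its 12 libraries with edgeR 4.0.16 in R 4.3.3 (TMM, filterByExpr by group, group means, quasi-likelihood F test, Benjamini-Hochberg over all genes tested, call at an adjusted p under 0.05). There were 10 contrasts. Named genes were the called members with the largest change, up to 8 a direction, at a mean count of 20 or more, a standing set of 20 members, and up to 3 called genes a direction in each other list; Ect2, Kif23, Hmmr, Nusap1, Nuf2, Cdca8 and Smc4 were also named outside that rule in some contrasts. Lists were described by counts and medians, with no set test. The alternatives were DESeq2 1.42.0 (size factors, Wald test), library size alone, no filter, a mean of at least 20 counts, the replicate number as a block and leaving out each library.

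The fits were tested on simulated counts in which few genes changed, in either direction and in 1 group. For total RNA, 60 of 4634 genes changed 2-fold. All unchanged genes kept 1 mean over the groups, unlike the RIP data, where 24.3% of all genes were called beyond GFP. Recovery in total RNA was 1.61% for 1.5-fold, 5% for 2-fold and 56.2% for 4-fold changes. In the cytoplasm it was 0%, 6.25% and 28.8%. For the enrichment beyond GFP it was 24.2% at 1.5-fold, 62.7% at 2-fold and 85.1% at 4-fold.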

Additional observations from a re-analysis of the deposited data

Results flagged for a closer look

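The ratio of IP to input differed between the plasmids for 21 of the 37 members by the test of the difference itself (edgeR, adjusted p under 0.05), where 24.3% of all genes were called. The log2 ratio with GFP-Mkrn3 was above that with GFP for 6 of them, by 1.42 for Cdca3, 1.34 for Ube2c, 0.94 for Birc5, 0.86 for Cenpa, 0.75 for Ccnb2 and 0.54 for Ckap2l. It was below for 15. The differences under -0.70 were -0.999 for Cenpe, -0.98 for Cenpf, -0.86 for Top2a, -0.82 for Kif11, -0.81 for Kif20b, -0.79 for Kif4 and -0.76 for Aspm. The smaller ones were -0.68 for Kif2c, -0.61 for Tpx2, -0.54 for Bub1b, -0.54 for Ndc80, -0.50 for Ect2, -0.46 for Anln, -0.44 for Kif23 and -0.37 for Mki67. Of the 21, 14 were called in every alternative, 5 above and 9 below.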

How the results depend on the processing

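Of the 86 called results over members and contrasts, 60 stayed called in every alternative and none reversed. In wt cells, cytoplasm against total RNA called 0 members as reported and 1 (Smc4) with the DESeq2 Wald test, with library size alone, with no filter and with a mean of at least 20 counts. Leaving out each library in turn gave 0 to 1 called members for cytoplasm against total RNA in Mkrn3ox, 1 to 3 for Mkrn3ox against wt cytoplasm, 7 to 20 for IP against input with GFP-Mkrn3, 19 to 24 for the enrichment beyond GFP, 20 to 27 between the IPs and 20 to 22 for IP against input with GFP. In the same order, these runs called 125 to 153, 355 to 448, 2385 to 4576, 2315 to 4359, 3902 to 5640 and 5804 to 6313 of all genes. The main tests did not pair libraries by replicate number, although an input and an IP can come from the same lysate. Deviations of same-numbered libraries correlated from -0.19 to 0.03 within a plasmid and from -0.10 to 0.32 across plasmids. Within a line they ran from -0.009 to 0.03 and across lines from -0.05 to 0.03. With 3 libraries a group, these values cannot show whether the numbers pair the libraries. A block within each plasmid called 20 members beyond GFP, and 2642 of all genes in place of 3178. With the number as a block, 21 members were called beyond GFP, 22 for IP against input with GFP, 13 with GFP-Mkrn3 and 24 between the IPs, and the block changed no count by over 1.5 times. In the cytoplasm, 2 members were called higher and 0 lower in Mkrn3ox with the block, which did not call Anln. The block, over all libraries or within a plasmid, also ended the calls of Ndc80 between the IPs and with GFP, Nusap1 with GFP, Ckap2l with GFP-Mkrn3 and Mki67 beyond GFP. DESeq2 gave no adjusted p for 13 of the 23 members in the difference between the lines. Low counts limit the fractionation results, where 14 members could not be tested.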
